A study of Mus musculus with 4 samples.

Results

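The 38 genes described here take up amino acids, make serine, carry one-carbon units on folate, belong to the ATF4 stress response, or interconvert glutamate, proline, polyamines and sulfur amino acids. They were chosen by function, with earlier results of these data known. Each was read from its brightest array probe in activated CD4+ T cells with and without the transcription factor Irf4. The arrays hold probes for 45526 genes or unnamed transcripts. Of the 38 genes, 37 had a probe whose accession matched their symbol and 35 were tested among 20505 genes. Pycr1 had no matched probe, and Slc7a11 and Aldh1l2 were not well above background on any array.

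Naive CD4+ T cells from the spleens of male C57BL/6 mice, either wild type or Irf4-/-, were activated for 2 days with antibody to CD3 at 1 µg per ml and mitomycin C-treated antigen-presenting cells from the same strain. Living CD4+ cells were then sorted, and their total RNA was hybridised to one-colour arrays, with 2 arrays per genotype. Another protocol text describes incubations of under 2 days, and the day given in the titles was followed here. The labels speak of 2 independent experiments, and they give neither the number of animals behind an array nor the Irf4 allele. Nothing says which arrays came from which experiment, so p-values measure only the spread between these arrays.

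T cells that leave rest to divide need far more amino acids than resting cells. They load transporters onto the membrane, chiefly the heavy chain Slc3a2 (CD98) paired with light chains such as Slc7a5 (LAT1), and they feed serine into mitochondrial folate reactions that supply carbon for purines, thymidylate and methionine. When amino acids run short or the endoplasmic reticulum is strained, phosphorylation of eIF2 favours translation of ATF4, a transcription factor that switches on many of these transporters and enzymes together with stress genes such as Ddit3, Trib3 and Chac1.

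In Irf4-/- cells no transcript of the group passed the test, and the 95% interval of the difference lay within 2-fold for 9 of 10 tested transporters and for all 8 genes of serine and folate metabolism. The largest differences of the group lay outside these 2 sets. They were in polyamine synthesis (Odc1, 2.20-fold higher), alanine transamination (Gpt2, 2.13-fold higher), transsulfuration (Cbs, 2.63-fold lower) and the mTORC1 inhibitor Ddit4 (1.91-fold lower). None of the 35 tested genes passed limma's test with Benjamini-Hochberg adjustment over all 20505 genes, and their adjusted p ran from 0.138 to 0.995. Over all genes 0.736% were called, 101 higher and 50 lower in Irf4-/- cells. At an unadjusted p under 0.05 the group held 5 genes, or 14.3%, against 11.4% of all genes. Levels below are log2 processed signals less the 75th percentile of their own array, differences are Irf4-/- minus wild type, and n = 2 arrays per genotype throughout.

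The median difference was -0.05 over the 35 genes and -0.02 over all tested genes, and the median size of a difference was 0.17 against 0.18. Differences were negative for 22 genes and positive for 13, against 10923 and 9582 of all 20505 tested genes. Both Irf4-/- arrays lay above both wild-type arrays for 8 genes and below them for 10, a total of 51.4%, against 39.2% of all tested genes (17.9% higher and 21.3% lower). The median level was 2.69 over the group and -0.07 over all tested genes. The part of signal level in these shares was not tested. The 95% interval of the difference, from limma's moderated error and not adjusted for the number of genes, lay wholly within 1 log2 unit of 0, that is within 2-fold, for 26 of 35 genes (74.3%, against 72.2% of all genes). The 9 genes whose intervals reached further were Slc6a9, Chac1, Trib3, Ddit3, Ddit4, Odc1, Gpt2, Cth and Cbs. A gene that did not pass is therefore not shown to be equal between the genotypes, and its interval says how large a difference the arrays leave room for. Only for Asns, Ddit4, Sesn2 and Odc1 did the difference stay within 1.5 times of the value given here under all 13 alternative settings, and for the other 31 genes at least 1 setting moved it further. In RNA from sorted cells in bulk, fewer cells of a type and less RNA per cell cannot be told apart.

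**Figure D1:**
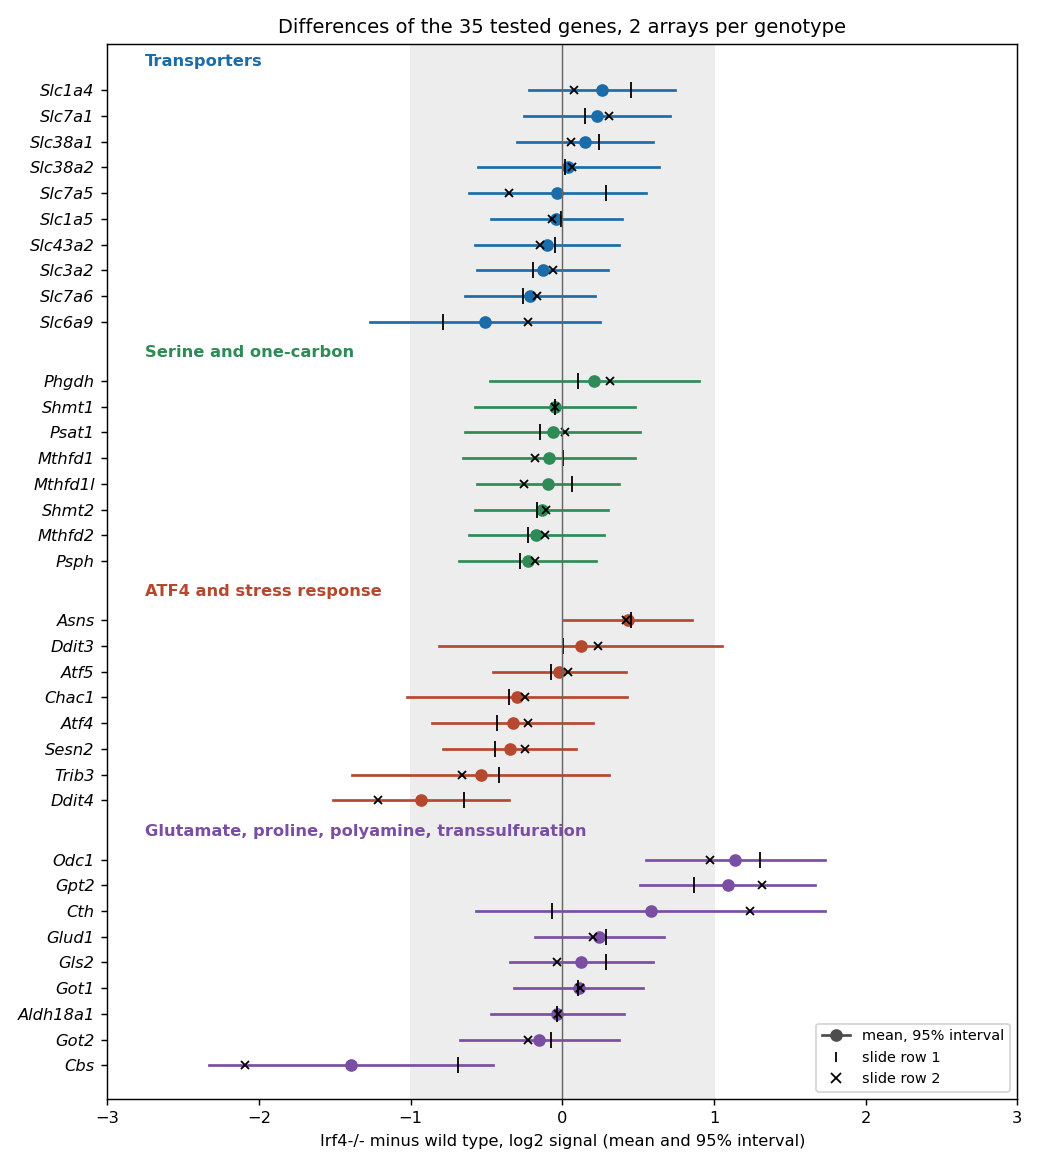
Differences in log2 signal, Irf4-/- minus wild type, for the 35 tested genes ordered by role; dots are means, lines 95% intervals, vertical ticks and crosses the differences within slide rows 1 and 2, and grey marks 1 log2 unit on either side of 0. The intervals of Odc1, Gpt2 and Asns lie above 0 and those of Ddit4 and Cbs below it, while all 8 serine and one-carbon genes stay inside the grey band.

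Each array detected 25677 to 28725 of its 56605 probes, and arrays of 1 genotype correlated across tested genes at r = 0.992 (wild type) and r = 0.989 (Irf4-/-). The targeted gene Irf4 had levels of 5.03 and 4.74 in wild-type and 4.23 and 4.04 in Irf4-/- cells (difference -0.75, limma adjusted p = 0.231), and a second probe differed by -0.37. Irf4 passed with normexp background correction and with trend and robust estimation in limma. Whether either probe falls in the sequence removed from the allele is not known here, so Irf4 signal does not check the labels. All 10 CD4+ T-cell markers examined were well above background on every array, and none passed. Their differences, 5 positive and 5 negative, ran from -0.48 for Cd28 to 0.86 for Cd5 (limma adjusted p = 0.407 and 0.130). Cd3e and Cd4 differed by -0.01 and 0.11. Of 10 B-cell markers 7 were above background everywhere, with a summed signal of 1.60 to 3.08 times the 75th percentile in wild-type and 2.36 to 5.54 in Irf4-/- arrays. The sum over 10 CD4+ T-cell markers was 1141 to 1289 and 1256 to 1356. Of 10 myeloid markers, 6 (Lyz2, Adgre1, Itgax, Fcgr3, S100a8 and S100a9) were not above background on any array, and the sum was 11.6 to 12.5 in wild-type and 10.3 to 11.1 in Irf4-/- arrays. Itgam, Csf1r and Cd68 were above background on every array and differed by -0.30, 0.01 and 0.60 (limma adjusted p = 0.755, 0.999 and 0.249). Cd14 was below background on some arrays. Of the CD8 markers only Cd8b1 was above background on every array, at levels of 3.12 and 3.21 in wild-type and 2.23 and 2.14 in Irf4-/- cells (limma adjusted p = 0.0979), and Cd8a was below background on some arrays. Of 5 natural killer cell markers only the granule protease gene Gzma was above background on every array, with differences of -1.22 and -3.17 in slide rows 1 and 2 (limma adjusted p = 0.230). Klrb1c and Klra8 were below background on some arrays, and Ncr1 and Klri2 on all. The part of these marker signals in the differences below was not tested.

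In amino acid transport, Slc7a5, the light chain that imports leucine and other large neutral amino acids, had levels of -2.01 and -1.83 on the wild-type arrays and -1.73 and -2.18 on the Irf4-/- arrays. The wild-type values lay between the Irf4-/- values, so the genotypes overlapped. The difference was -0.03 ± 0.23 (SE; limma adjusted p = 0.994), with a 95% interval from -0.61 to 0.55, or 0.65-fold to 1.46-fold. It was 0.29 in slide row 1 and -0.35 in row 2, each row of the slide holding 1 array of each genotype, and 0.17 with normexp. Only 1 probe of Slc7a5 was matched. Slc3a2, the chain that carries Slc7a5 to the membrane, stood at 4.80 and 4.69 in wild-type and 4.61 and 4.63 in Irf4-/- cells. Both Irf4-/- arrays were lower, by little, and the difference was -0.13 ± 0.17 (SE; limma adjusted p = 0.922; interval -0.56 to 0.30). A second Slc3a2 probe differed by 0.04.

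The glutamine and neutral amino acid carrier Slc1a5 (ASCT2) differed by -0.04 (interval -0.47 to 0.39) and the glutamine importers Slc38a1 and Slc38a2 by 0.15 and 0.04. For the related carrier Slc1a4 (ASCT1) the levels were 0.50 and 0.62 in wild-type and 0.95 and 0.69 in Irf4-/- cells. Neither Irf4-/- array was as low as a wild-type array, although the difference within slide row 2 was only 0.07, and the difference of 0.26 ± 0.19 (SE) did not pass (limma adjusted p = 0.768). Slc7a1, the importer of arginine and lysine, differed by 0.23 (interval -0.25 to 0.71), and Slc7a6, another partner of Slc3a2, by -0.21 (interval -0.64 to 0.21). Slc43a2, a facilitative carrier of large neutral amino acids, differed by -0.10. The glycine transporter Slc6a9 had levels of -0.51 and -0.32 in wild-type and -1.29 and -0.55 in Irf4-/- cells. Its Irf4-/- arrays lay below both wild-type arrays but 0.75 apart, and the difference was -0.51 ± 0.29 (SE; limma adjusted p = 0.665; interval -1.27 to 0.25). It was -0.79 in slide row 1 and -0.23 in row 2, ran from -0.88 (without Irf4-/- replicate 2) to -0.14 (without Irf4-/- replicate 1), and was -0.25 with normexp background correction. No transporter of the group reached an unadjusted p under 0.05. The cystine importer Slc7a11, a known ATF4 target, gave signal not well above background on any array, so no difference is given for it.

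Serine synthesis and the folate cycle had differences close to 0. Phgdh, the enzyme that draws carbon from glycolysis into serine, differed by 0.21 (interval -0.48 to 0.90), and the next enzymes of the pathway, Psat1 and Psph, by -0.06 and -0.23. Psph was lower on both Irf4-/- arrays (3.50 and 3.42, against 3.78 and 3.60 in wild type) without passing (limma adjusted p = 0.797). Serine hydroxymethyltransferase moves a carbon from serine onto folate: its cytosolic form Shmt1 differed by -0.05 and its mitochondrial form Shmt2 by -0.13. Mthfd2, the mitochondrial enzyme that oxidises the folate-bound carbon and is a known ATF4 target, had levels of 3.26 and 3.10 in wild-type and 3.04 and 2.98 in Irf4-/- cells. Both Irf4-/- values were the lower ones, and the difference was -0.17 ± 0.17 (SE; limma adjusted p = 0.878; interval -0.62 to 0.28). A second Mthfd2 probe differed by -0.26. Its mitochondrial partner Mthfd1l differed by -0.09, and cytosolic Mthfd1 by -0.09. Read from their brightest probes, the 8 tested genes of this pathway thus had differences from -0.23 to 0.21, with a median of -0.09. Of these 7 were negative, against 10923 of all 20505 genes, and all 8 intervals lay within 2-fold. Second probes differed by 0.13 for Psat1, 0.12 for Mthfd1, 0.02 for Shmt2 and -0.01 for Shmt1. A second Mthfd1l probe was not above background on any array. Aldh1l2, the mitochondrial enzyme that releases the carbon as carbon dioxide, was not well above background on any array.

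In the ATF4 arm 6 of 8 tested genes had negative differences, against 10923 of all 20505, and 2 had positive ones. The arm's median was -0.31, against -0.02 over all tested genes. Irf4-/- arrays lay wholly below wild type for 3 genes and wholly above for 1. That is 50% of this small list, against 39.2% of all tested genes (21.3% lower and 17.9% higher). Atf4 itself had levels of 6.44 and 6.60 in wild-type and 6.01 and 6.37 in Irf4-/- cells. The Irf4-/- arrays were below both wild-type arrays, the nearer by 0.07, and the difference of -0.33 ± 0.21 (SE) did not pass (limma adjusted p = 0.709; interval -0.86 to 0.20). It was -0.43 and -0.23 in slide rows 1 and 2, -0.51 without Irf4-/- replicate 2, -0.15 without Irf4-/- replicate 1, and -0.18 with a second probe. The array reads Atf4 transcript, whereas the protein is controlled largely at translation.

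Asns, which makes asparagine and is among the best-known ATF4 targets, stood at 2.86 and 2.87 in wild-type and 3.31 and 3.29 in Irf4-/- cells. The Irf4-/- arrays were the higher ones, with replicates within 0.03 of each other in each genotype. The difference was 0.43 ± 0.16 (SE), or 1.35-fold, at an adjusted p of 0.423 (limma; interval 0.01 to 0.86), and a second Asns probe differed by 0.65. Trib3, a pseudokinase that is induced by ATF4 and feeds back on it, had levels of 1.54 and 2.28 in wild-type and 1.12 and 1.62 in Irf4-/- cells. The higher Irf4-/- array exceeded the lower wild-type array, so the genotypes overlapped, and the difference was -0.54 ± 0.33 (SE; limma adjusted p = 0.693). Within slide rows it was -0.42 and -0.66, and it ran from -0.91 without wild-type replicate 1 to -0.17 without wild-type replicate 2.

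Chac1, which degrades glutathione, differed by -0.30 (interval -1.02 to 0.42), and by -0.58 and -0.02 without Irf4-/- replicate 2 and 1. Ddit3, encoding the apoptosis-promoting factor CHOP, differed by 0.12 with a wide interval of -0.81 to 1.06, and the ATF4 relative Atf5 by -0.02 (interval -0.46 to 0.42). Sesn2, a stress-induced leucine sensor that restrains mTORC1, had levels of 0.91 and 0.79 in wild-type and 0.47 and 0.55 in Irf4-/- cells. The Irf4-/- arrays lay below both wild-type arrays, and the difference was -0.35 ± 0.17 (SE; limma adjusted p = 0.575; interval -0.79 to 0.09).

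Ddit4 (REDD1), which restrains mTORC1 through the TSC complex and responds to hypoxia and glucocorticoids as well as to ATF4, had levels of 6.91 and 7.40 in wild-type cells and 6.26 and 6.18 in Irf4-/- cells. The wild-type arrays were both higher and the nearest pair was 0.65 apart. The difference was -0.93 ± 0.23 (SE), a fold of 1.91, at an adjusted p of 0.197 (limma; interval -1.52 to -0.35). By slide row it was -0.65 and -1.22. It passed with normexp background correction (adjusted p = 0.00960) and with trend and robust estimation in limma (adjusted p = 0.0142), and its adjusted p over all settings ran from 0.00960 to 0.970.

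**Figure D2:**
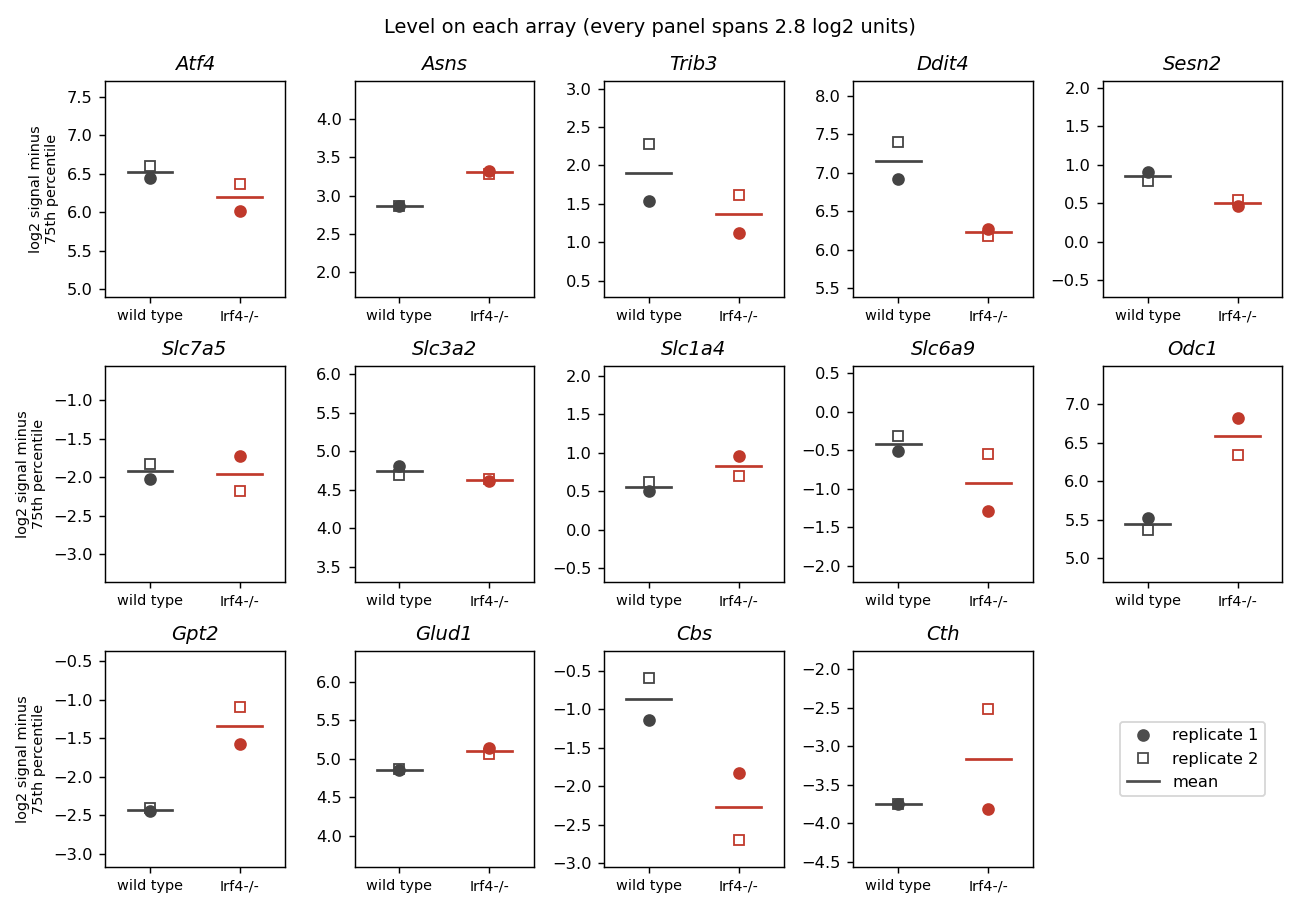
Level on each array (log2 signal minus the array's 75th percentile) for the 14 genes given in full, with wild-type arrays in grey, Irf4-/- arrays in red, replicate 1 filled and replicate 2 open, and bars for the mean of 2 arrays; each panel has its own axis of the same span. Asns shows near-identical replicates (2.86 and 2.87 against 3.31 and 3.29), and Cbs and Cth the widest spread between Irf4-/- replicates.

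The promoters show how the ATF4 response element is spread over the group. ATF4 pairs with C/EBP proteins on a composite element whose core can be written TGATGNAA, and this core was searched on both strands of RefSeq promoter windows (GRCm38.p6, 250 bases before to 50 after a gene's start). A window was at hand for 32 of the 38 genes, and 7 of these (21.9%) held the core, against 4.51% of 27025 genes with a window. The 7 were Slc7a11, Slc1a4, Asns, Chac1, Trib3, Got1 and Pycr1. The genes were partly chosen as known ATF4 targets, so this share describes the list. In Trib3 and Slc1a4 the match did not lie wholly before the start. The 3 tested genes with a match wholly before the start are printed below 5′ to 3′ on the gene's strand, with the match in capitals, because their differences have opposite signs, although that of Chac1 is close to 0 without 1 array, as given above.
Asns (chr6:7693210-7693252, minus strand): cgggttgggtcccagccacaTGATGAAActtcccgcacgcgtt
Chac1 (chr2:119351029-119351076, plus strand): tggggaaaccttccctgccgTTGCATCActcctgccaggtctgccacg
Got1 (chr19:43524680-43524727, minus strand): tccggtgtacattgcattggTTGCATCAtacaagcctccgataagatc

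In Asns the core begins 23 bases before the gene's start, in Got1 102 bases and in Chac1 193 bases before it, the latter 2 as the reverse complement TTGCATCA. Beside these sequences stand differences of 0.43 for Asns, 0.11 for Got1 and -0.30 for Chac1. Of the 5 tested genes with the core in their window, 3 had positive and 2 negative differences, with a median of 0.11, against a median of -0.09 over 25 tested genes whose window lacked it. An element of 2 GAAA runs with any 2 bases between them, a form bound by interferon regulatory factors, was in none of the 32 windows (3.99% of all genes held it), and the E-box CACGTG was in 2, those of Aldh18a1 and Cbs (8.09% of all genes). These are matches of letters in a short window and not sites of binding.

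Polyamine synthesis held the largest positive difference. Odc1, ornithine decarboxylase, which commits ornithine to putrescine and is a classical MYC-responsive gene of growing cells, had levels of 5.52 and 5.36 in wild-type and 6.82 and 6.34 in Irf4-/- cells. Both Irf4-/- arrays were above both wild-type arrays, and the nearest pair lay 0.82 apart. The difference was 1.14 ± 0.23 (SE), or 2.20-fold, at an adjusted p of 0.138 (limma; interval 0.55 to 1.73), with 1.30 and 0.98 in slide rows 1 and 2. A second Odc1 probe, at 1.98 and 1.83 against 3.34 and 2.90, differed by 1.22, though it reads the same RNA and is no further replicate. The difference passed with normexp (adjusted p = 0.00278) and with trend and robust estimation (adjusted p = 0.00428), and its adjusted p over all settings ran from 0.00278 to 0.827.

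Other polyamine genes, singled out after their values were seen, did not follow Odc1 closely. The synthases Srm and Sms, which build spermidine and spermine, differed by -0.14 and -0.04. The antizyme genes Oaz1 and Oaz2, whose products send ornithine decarboxylase for degradation, differed by 0.13 and 0.22, and the antizyme inhibitor Azin1 by -0.41. The catabolic genes Paox, Sat1 and Smox differed by -0.48, 0.49 and -0.26. None of these 8 genes passed (limma adjusted p from 0.427 to 0.994).

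Gpt2, the mitochondrial alanine aminotransferase that passes nitrogen between glutamate and alanine and is induced by ATF4, had levels of -2.44 and -2.41 in wild-type and -1.57 and -1.09 in Irf4-/- cells. The Irf4-/- arrays were both higher, by 0.87 and 1.31 in slide rows 1 and 2. The difference was 1.09 ± 0.22 (SE), or 2.13-fold, at an adjusted p of 0.144 (limma; interval 0.51 to 1.67). With normexp it shrank to 0.56 (adjusted p = 0.111), and it passed in none of the settings tried. A dimmer second Gpt2 probe, above background on 1 array of each genotype, differed by 0.68.

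Glud1, glutamate dehydrogenase, had levels of 4.85 and 4.86 in wild-type and 5.14 and 5.06 in Irf4-/- cells. Within slide rows the Irf4-/- array was higher by 0.29 and 0.20, and the difference of 0.24 ± 0.17 (SE) did not pass (limma adjusted p = 0.747). Its second probe differed by 0.21. The other glutamate enzymes lay closer to 0: Gls2, the liver-type glutaminase, at 0.13, and the cytosolic and mitochondrial aspartate aminotransferases Got1 and Got2 at 0.11 and -0.15. Aldh18a1, which opens proline synthesis from glutamate, differed by -0.03 (interval -0.47 to 0.41).

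The 2 transsulfuration enzymes, which convert homocysteine to cysteine, had low signal and wide intervals. Cbs, which catalyses the first step, had levels of -1.14 and -0.60 in wild-type and -1.83 and -2.69 in Irf4-/- cells. The Irf4-/- arrays were the lower ones, but replicates of each genotype lay 0.54 and 0.86 apart. The difference was -1.39 ± 0.36 (SE), a fold of 2.63, at an adjusted p of 0.228 (limma; interval -2.33 to -0.46). It was -0.69 in slide row 1 and -2.10 in row 2, and -0.96 without Irf4-/- replicate 2. The difference passed with normexp at a smaller size (-0.76, adjusted p = 0.0424), with median scaling (-1.50, adjusted p = 0.00102) and with trend and robust estimation (adjusted p = 0.0486). The E-box in the promoter window of Aldh18a1, which differed by -0.03, lies 59 bases before the start. That of Cbs lies 229 bases before the start, and a link to either difference was not tested.
Cbs (chr17:31637409-31637454, minus strand): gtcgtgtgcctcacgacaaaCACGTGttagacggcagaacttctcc

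Cth, which releases cysteine in the second step, had levels of -3.75 and -3.75 in wild-type and -3.82 and -2.52 in Irf4-/- cells. A single Irf4-/- array, replicate 2, stood above the rest and the genotypes overlapped. The difference was 0.58 ± 0.45 (SE; limma adjusted p = 0.797; interval -0.57 to 1.73), and -0.07 without that array. The lowest level counted as well above background was -4.82 to -3.93 on these arrays, so Cth was read near that limit.

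**Figure D3:**
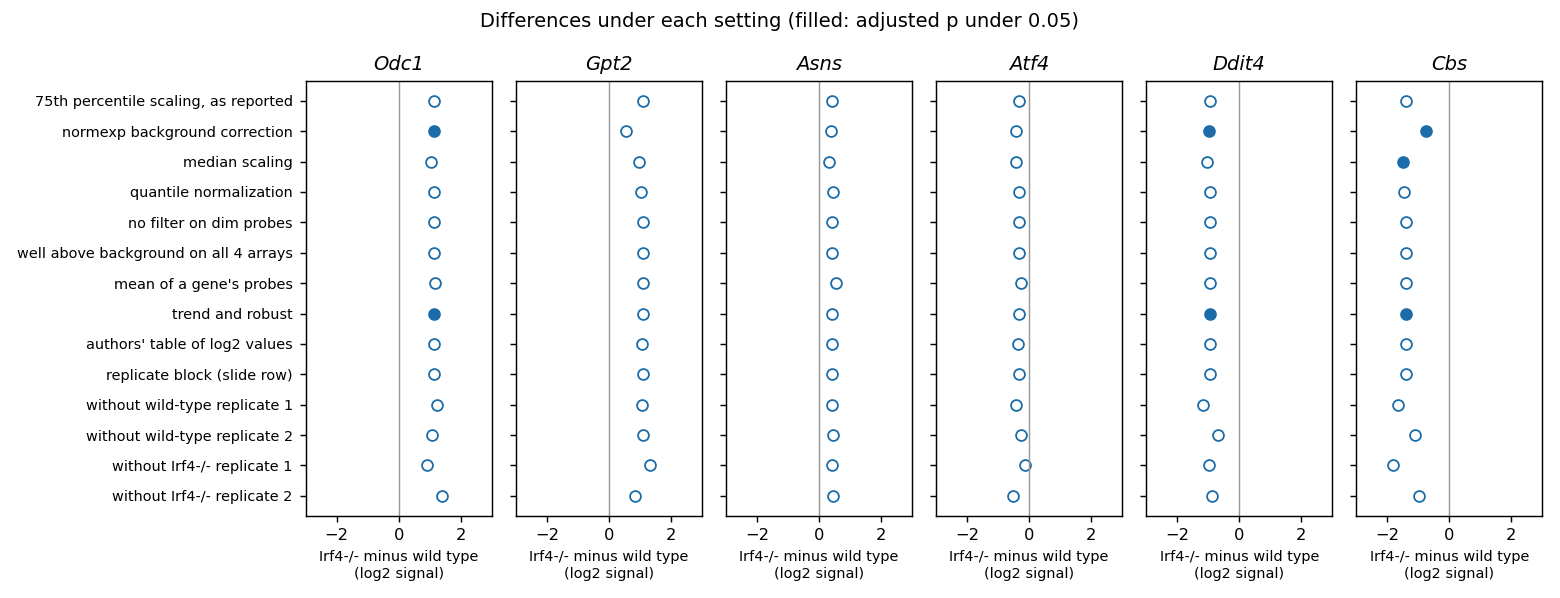
Difference in log2 signal, Irf4-/- minus wild type, for 6 genes under the reported setting and 13 alternatives; filled circles mark an adjusted p under 0.05. Odc1 and Ddit4 are filled in 2 settings and Cbs in 3, and no sign changes occur in these 6 panels.

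Genes of the same pathways outside the group were read from lists chosen by function, also with earlier results of these data known. All 20 genes listed for cytosolic aminoacyl-tRNA synthetases, a family with many ATF4-responsive members, were tested and none passed (1 had an unadjusted p under 0.05). Differences were negative for 19 of 20, against 10923 of all 20505 genes, with a median of -0.17 and a range of -0.50 to 0.10. Both Irf4-/- arrays lay below both wild-type arrays for 9 and above them for none, a total of 45.0% against 39.2% of all genes (21.3% lower). Nars, which charges asparagine, had levels of 2.58 and 2.38 in wild-type and 2.05 and 1.91 in Irf4-/- cells (difference -0.50, limma adjusted p = 0.399), and Cars, which charges cysteine, differed by -0.34 (limma adjusted p = 0.576). With 2 arrays a genotype, intervals for all 20 lay within 2-fold.

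Among 20 other amino acid transporters tested, 2 rose and 18 did not pass. Slc7a7, the y+LAT1 light chain that also pairs with Slc3a2 and exports arginine and lysine in exchange for neutral amino acids, had levels of -2.36 and -2.42 in wild-type and -0.61 and -0.66 in Irf4-/- cells. Replicates lay within 0.06 of each other and the genotype means 1.76 apart, so Slc7a7 rose 3.39-fold (limma adjusted p = 0.0376). Slc43a1 (LAT3), a carrier of large neutral amino acids, rose 8.27-fold from -2.42 and -2.50 to 0.17 and 1.00 (limma adjusted p = 0.0402). The family member Slc43a2, in the group described here, differed by -0.10. Both calls ended with the replicate block, with quantile normalization, without a filter on dim probes and without wild-type replicate 1 or 2. That of Slc43a1 also ended with the mean of its probes. Its difference was then 1.91 (limma adjusted p = 0.0891), against 3.05 for the brightest probe alone. With normexp the differences were smaller, at 1.08 and 1.91, and passed. The adjusted p over all settings reached 0.510 for Slc7a7 and 0.464 for Slc43a1. Differences in the list were positive for 10 and negative for 10 genes. Genotypes did not overlap for 5 in each direction, a total of 50%, against 39.2% of all tested genes (17.9% higher and 21.3% lower). Among the negative ones Slc7a8 (LAT2), singled out after its values were seen, had a difference of -1.96 that did not pass (limma adjusted p = 0.166). It passed with median scaling and with trend and robust estimation, and shrank to -0.73 with normexp.

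Of 23 other genes of the folate and methionine cycles none passed, and their median difference was near 0, with 11 positive and 12 negative. One of them was Gldc, the glycine decarboxylase of the mitochondrial glycine cleavage system, at -4.67 and -3.32 in wild-type and -1.31 and -1.11 in Irf4-/- cells. Only 1 of 2 wild-type arrays was above background, so the wild-type mean is uncertain, and Gldc entered the test through its Irf4-/- arrays. It did not pass (limma adjusted p = 0.0909), although it did with normexp, with median scaling and with trend and robust estimation. Ggh, which trims the glutamate tail of folates, differed by -0.48 (limma adjusted p = 0.393).

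Of 24 other genes of the integrated stress response, Jdp2 rose and 23 did not pass. Jdp2, a basic leucine zipper repressor, had levels of -0.31 and 0.25 in wild-type and 2.21 and 2.62 in Irf4-/- cells, a rise of 5.45-fold (limma adjusted p = 0.0465). This call ended in the same 5 settings as that of Slc7a7, where the adjusted p reached 0.492. The stress-induced factor Atf3 differed in the other direction, by -0.81 (limma adjusted p = 0.176). Atf3 passed with normexp and with trend and robust estimation. The list was negative for 18 of 24 genes, against 10923 of all 20505, with a median of -0.21 against -0.02. Genotypes did not overlap for 13 of its genes, 9 lower and 4 higher in Irf4-/- cells. That is 54.2%, against 39.2% of all tested genes (21.3% lower and 17.9% higher). The glutamine, proline, arginine and polyamine list had 24 tested genes, of which none passed, with a median of -0.05. In it Bcat1, the cytosolic branched-chain aminotransferase, stood at 2.60 and 2.12 in wild-type and 1.39 and 1.36 in Irf4-/- cells (difference -0.99, limma adjusted p = 0.176). Bcat1 passed with normexp, with median scaling and with trend and robust estimation. The proline dehydrogenase gene Prodh differed by -0.70 and did not pass.

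A list for amino acid sensing and control of mTORC1 held 23 tested genes, among them Mtor, Rptor, Mlst8, Tsc1, Tsc2 and Rheb, which are not sensors. None of the 23 passed, and the median was 0.06. Positive differences numbered 14 and negative 9, against 9582 and 10923 of all 20505 genes. In 17 of the 23, or 73.9%, the genotypes did not overlap, 10 higher and 7 lower in Irf4-/- cells. Over all genes the share was 39.2% (17.9% higher and 21.3% lower). The median level was 1.89 in this list and -0.07 over all tested genes. The part of signal level in these shares was not tested. Sesn1, a sestrin driven by p53 and FOXO factors, had levels of 3.20 and 3.08 in wild-type and 3.97 and 4.18 in Irf4-/- cells. It was higher on both Irf4-/- arrays (difference 0.93, limma adjusted p = 0.127), whereas the ATF4-responsive Sesn2 had a difference of -0.35. Sesn1 passed with normexp and with trend and robust estimation. The arginine sensor Castor1 differed by 0.97 (limma adjusted p = 0.165) and passed only with trend and robust estimation.

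**Figure D4:**
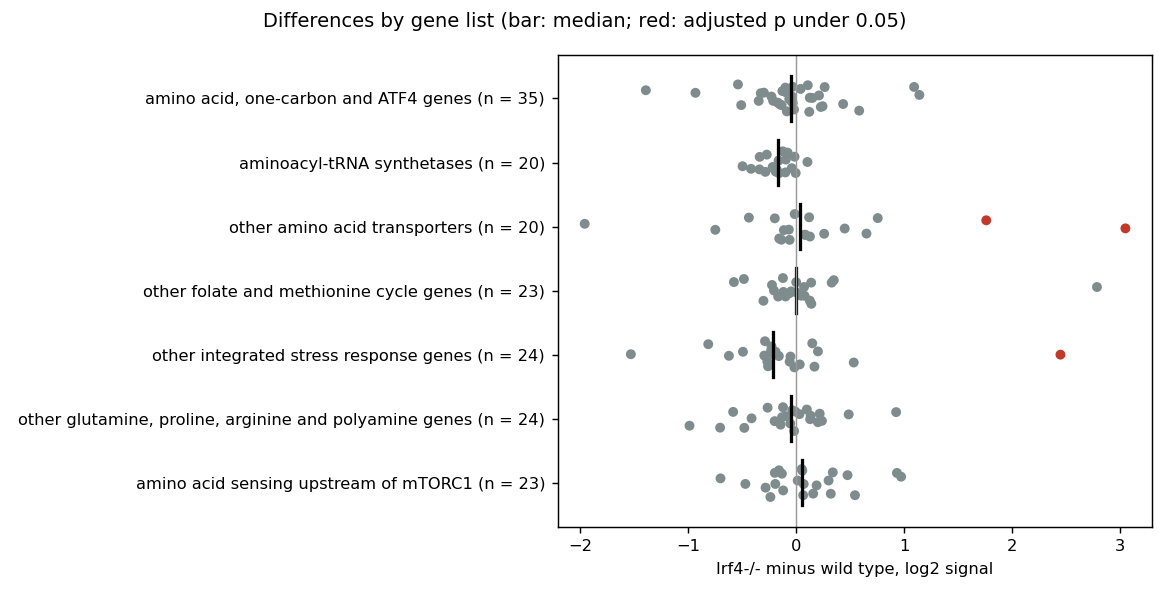
Differences in log2 signal, Irf4-/- minus wild type, of single genes (dots) in the group and in 6 further lists, with vertical offsets only to separate points, a black bar at each median and red for an adjusted p under 0.05. The bar of the synthetases lies at -0.17 and that of the group at -0.05, and the 3 red points are Slc7a7, Slc43a1 and Jdp2.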

How the data were processed

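Per the file headers, the authors scanned 4 one-colour Agilent arrays and extracted spot intensity with Feature Extraction 11.0.1.1. Version 9.1 stands in the submitters' processing notes. The deposited table of log2 values equals, per array up to a shift of at most 0.03, log2 processed signal less the 75th percentile, with each probe centred over the 4 arrays, so its scale and direction are known and its levels are lost (column medians -0.16, 0.10, -0.11 and 0.12). It served as an alternative.

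From the processed intensity, log2 values less each array's 75th percentile were computed over non-control spots, outlier spots were left out and spots of 1 probe averaged. Accessions of 32994 of 56605 probes matched 22911 symbols in RefSeq GRCm38.p6. A gene was read from its brightest probe and tested if either genotype had that probe well above background on its 2 arrays. limma 3.58.1 in R 4.3.3 (lmFit, eBayes; 2 residual and 2.95 prior degrees of freedom) compared genotypes, with Benjamini-Hochberg adjustment over 20505 genes and a threshold of 0.05. An exact permutation test of 2 against 2 arrays cannot reach 0.05. The number of arrays limits the precision.

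All 4 arrays lay on 1 slide. Replicate name and slide row coincide, so 1 block stands for both. The names follow accession order and are no pairing from the labels. Slide column and genotype cannot be told apart. Normexp used median spot and background intensity (offset 50), in place of the mean spot intensity, which was not used here. With 1 array left out, the lone array of a genotype is assumed to vary like the other genotype's. Leave-one-out, other scalings, filters, probe rules and limma settings were the further alternatives.

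Genes given in full were those past the threshold, the 12 with the smallest unadjusted p, and Atf4, Asns, Slc7a5 and Slc3a2. In other lists they were those that passed, filled up to 2 by unadjusted p. The members and lists were chosen with earlier results of these data known. A further marker list is not reported here.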

Additional observations from a re-analysis of the deposited data

How the results depend on the processing

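The difference was recomputed under 13 alternatives, all planned. Median scaling shifted all genes to a median of -0.13, so its values are to be read against that. Of 35 genes, 20 kept their sign in every setting and 15 did not; of 455 recomputed differences 429 kept it and 7 were past the threshold.

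The group's calls moved from 0 to 1 higher and 2 lower (Odc1; Ddit4 and Cbs) with normexp and with trend and robust estimation, and to 1 lower (Cbs) with median scaling. The replicate block (slide row) called 0 of the group (smallest adjusted p = 0.153), and 0 genes in all, higher or lower (3195 at an unadjusted p under 0.05 in limma); it changed no other call in the group. Deviations of same-row arrays correlated at r = 0.348, a hint from 1 pair of rows. Over all genes, higher and lower calls numbered 461 and 299 with normexp, 594 and 448 with median scaling, 0 and 1 with quantile normalization, 0 and 0 without a filter on dim probes (2099 at an unadjusted p under 0.05), 486 and 311 with trend and robust estimation, and 179 and 81 from the authors' table. With 1 array left out they ranged from 0 to 331 higher and from 0 to 156 lower, being 0 without wild-type replicate 1 or 2 (1864 and 1678 at an unadjusted p under 0.05), 331 and 156 without Irf4-/- replicate 1, and 139 and 69 without Irf4-/- replicate 2. The group's median lay between -0.08 and -0.06 then, with 0 calls.

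Signs changed with normexp for Slc7a5 (0.17), with median scaling for Slc38a2 (-0.068) and Got1 (-0.0015), and with the mean of a gene's probes for Psat1 (0.032) and Mthfd1 (0.015). With 1 array left out, differences that changed sign ranged from -0.26 to 0.19 for Slc7a5, -0.084 to 0.0059 for Slc1a5, -0.15 to 0.23 for Slc38a2, -0.21 to 0.014 for Slc43a2, -0.072 to 0.49 for Phgdh, -0.27 to 0.14 for Psat1, -0.19 to 0.091 for Shmt1, -0.29 to 0.12 for Mthfd1, -0.21 to 0.019 for Mthfd1l, -0.29 to 0.53 for Ddit3, -0.089 to 0.048 for Atf5, -0.32 to 0.014 for Got2, -0.083 to 0.020 for Aldh18a1, -0.070 to 1.24 for Cth, -0.36 to 0.068 for Srm, -0.31 to 0.24 for Sms, -0.0070 to 0.28 for Oaz1 and -0.64 to 0.11 for Smox. None of these passed in any setting. The causes were not tested. Of these genes Cth was read near the background limit.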
